A study of Homo sapiens with 6 samples.

Results

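In acRIP-seq of SW480 and DLD-1, established human epithelial lines from colorectal cancer (CRC), a small set of ac4C peaks held many copies of a C-rich pattern. The peaks described here are those of the list called on the pooled libraries that carry at least 5 listed sites of the 12-base pattern CXXCXXCXXCXX, in which 4 Cs stand 3 bases apart and X is any base. They are called dense peaks below. There were 1017 of them among 15622 pooled peaks (6.51%), on 922 of 8370 host genes. They were compared with the 7163 pooled peaks without a listed site (site-free peaks) within bins of the same length, and the remaining 7442 peaks held 1 to 4 sites. The number of sites was thus the rule of choice and is not a result. The ac4C motif that the study reports, CXXCXXCXX, is shorter, so site-free peaks may still hold it.

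RNA of both lines was studied in untreated wild-type cells, with 3 groups per line. Input was total RNA, the RIP library was RNA precipitated with an antibody against NAT10, and the acRIP library was RNA precipitated with an antibody against ac4C. Each group held 1 library, so there were no replicates and no test between conditions could be made. All intervals below are 95% binomial intervals over peaks, sites or gaps and cover counting error only.

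N4-acetylcytidine (ac4C) is a cytidine with an acetyl group on its base. It is written by NAT10, an acetyltransferase long known to act on transfer and ribosomal RNA, and it has also been mapped in messenger RNA, where it has been tied to RNA stability and translation. Because reading frames also advance in steps of 3 bases, a pattern with a C in each step of 3 bases can lie at a fixed position of consecutive codons.

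The libraries did not pair by label. On a log2(FPKM + 1) scale, Pearson correlations across 16196 genes were 0.871 between RIP and Input labelled SW480 and 0.856 between RIP and Input labelled DLD-1. Across labels they were 0.944 (RIP SW480 with Input DLD-1) and 0.951 (RIP DLD-1 with Input SW480). Genes are not independent replicates, and which label is at fault was not tested. The acRIP folds and peak lists of each line are also relative to Input, and whether the labels affect them was not tested. The depth of the RIP-table libraries, relative to the RIP library labelled SW480, was estimated from ratios at low genes. The estimates were 0.493 (Input SW480), 0.85 (RIP DLD-1) and 0.456 (Input DLD-1). They rest on the ratio found at 131 of 1645, 282 of 3203 and 140 of 1946 low genes. The depth of the acRIP libraries is unknown. Of 11 epithelial markers, 10 reached an Input FPKM of 1 in SW480 and 7 in DLD-1, with KRT20, CDX1, CEACAM5 and LGR5 at or near 0 in DLD-1. No leukocyte, endothelial or fibroblast marker reached 1 in either Input.

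What such a site looks like is shown by 3 hosts whose sites fall in the promoter windows of RefSeq (GRCh38.p14), each 300 bases around a transcription start. All 231 sites of pooled peaks that lie in these windows matched the pattern, 56 of them in dense peaks of 23 hosts. The lines below run 5′ to 3′ on the strand of the peak, with the 4 Cs of the pattern in capitals. TUBGCP2, a subunit of the gamma-tubulin complex that nucleates microtubules, is shown because it had more dense peaks than any other host, and all 5 sites of its 5'-UTR peak are given.
TUBGCP2 chr10:133309023-133309034: CccCagCcgCgg
TUBGCP2 chr10:133308995-133309006: CagCggCtcCgc
TUBGCP2 chr10:133308941-133308952: CaaCtgCatCac
TUBGCP2 chr10:133308899-133308910: CacCgtCcgCga
TUBGCP2 chr10:133308860-133308871: CttCcgCcgCcg

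FAAP20, a component of the Fanconi anaemia DNA repair pathway, is shown for sites that stand side by side. Of the 6 sites in its exon peak, 5 lay in a window, 2 pairs of them abutted with no base between, and 2 of the 5 had the same 12 bases.
FAAP20 chr1:2189652-2189663: CtcCccCgcCag
FAAP20 chr1:2189640-2189651: CagCccCgcCtc
FAAP20 chr1:2189627-2189638: CggCtcCccCgc
FAAP20 chr1:2189615-2189626: CagCagCccCgc
FAAP20 chr1:2189599-2189610: CggCtcCccCgc

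CCT5, a subunit of the chaperonin that folds actin and tubulin, is shown for a CDS peak, with 3 of its 5 sites.
CCT5 chr5:10250358-10250369: CctCgcCttCga
CCT5 chr5:10250388-10250399: CctCatCatCaa
CCT5 chr5:10250563-10250574: CtcCgtCtcCct

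The 8 free positions of these 56 dense sites held C in 36.8%, G in 27.5%, T in 20.8% and A in 15% of 448 positions. These windows surround transcription starts, so the sites in them are a small and selected share of the 7005 sites in dense peaks. The base composition of whole peaks was not analysed here.

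Dense peaks were long. Their median length was 538 bases (interquartile range 359 to 747, lowest 120, highest 2370), whereas that of site-free peaks was 181 bases. A peak of 151 to 200 bases was dense in 0.906% of cases, one of 301 to 350 bases in 7.57%, and one of 801 to 900 bases in 45.3%. By their choice they hold more than their share of sites, 34% of all listed sites in 13.6% of the bases. They had a median of 1.26 sites per 100 bases (interquartile range 0.925 to 1.75), and the spread ran from 0.232 to 6.08. Peaks with 1 to 4 sites had a median of 0.606 and reached 3.36, so the 2 groups overlapped in density. Most were close to the threshold, with 608 peaks of 5 or 6 sites and 125 peaks of at least 10. The 396 peaks with exactly 5 sites had medians of 419 bases in length, 1.19 sites per 100 bases and a fold of 28.1. The 641 peaks just outside, with 4 sites, had 359 bases, 1.11 sites per 100 bases and a fold of 21.7.

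**Figure D1:**
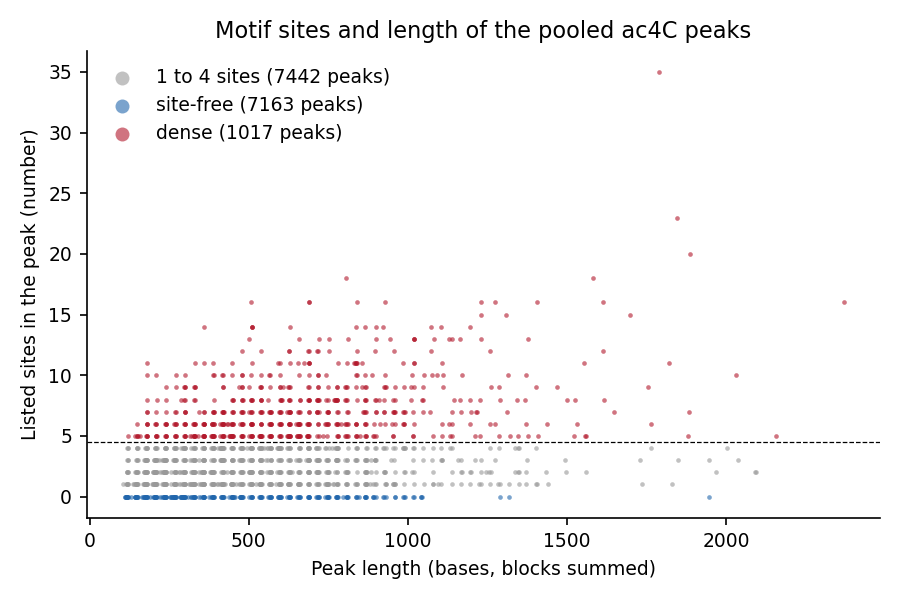
Number of listed motif sites (vertical axis) against length in bases (horizontal axis) for the pooled ac4C peaks, 1 point per combination of length and number, with the threshold of 5 sites as a dashed line. Site-free peaks thin out above 1000 bases, whereas dense peaks reach 2370 bases and 35 sites.

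The peaks with the most sites lay on hosts of varied function. SERINC2, a member of the serine incorporator family of membrane proteins, held 35 sites in 1790 bases over 9 exon blocks (chr1:31423713-31434680), at a fold of acRIP over Input of 112. FSCN1, which encodes the actin-bundling protein fascin, had 23 sites in a 3'-UTR peak of 1846 bases at a fold of 81.3, and a second dense peak of 12 sites in its CDS. THBS1, the matrix glycoprotein thrombospondin, had 20 sites in a CDS peak of 1886 bases over 9 blocks, at a fold of 246. RNF126, a ubiquitin ligase, had 18 sites in 807 bases. SLC7A5, a transporter of large neutral amino acids, had 18 sites in a 3'-UTR peak of 1582 bases, whose fold of 3300 was the highest of these. DPP9, a dipeptidyl peptidase, ERF, a transcriptional repressor of the ETS family, C19orf47, the processed transcript AC005785.1 and PARP10, an ADP-ribosyltransferase, had 16 sites each. The first 4 of these lie on chromosome 19, and 5 further peaks with 16 sites lay on other chromosomes.

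The most tightly packed peaks were short, and most were in CDS. The highest value was in the 3'-UTR of ZFP41, a zinc finger gene, with 11 sites in 181 bases or 6.08 per 100 bases. FOXD1, a forkhead transcription factor, had 10 sites in 180 bases of CDS, or 5.56 per 100 bases. TBX1, a T-box factor, had 10 sites in 210 bases (4.76 per 100 bases). JAG2, a ligand of Notch receptors, had 8 sites in 181 bases (4.42 per 100 bases), and all 8 were in the same register of 3. TCF15 and IRF2BP1 each had 5 sites in 120 bases, YY1 had 6 in 150 bases, and ARID3A had 7 in 180 bases, all in CDS and all on genes of transcription factors or co-regulators. USB1, which trims the end of U6 small nuclear RNA, carried 14 sites in 361 bases of exon. POM121B is an unprocessed pseudogene with close relatives elsewhere in the genome, so its peak of 7 sites is uncertain as to its host. Folds here were low, from 2.23 in IRF2BP1 to 48.9 in USB1. Only the JAG2 and YY1 peaks overlapped a peak of both lines. Those of ZFP41, FOXD1, IRF2BP1 and ARID3A overlapped a peak of SW480 alone. Those of TBX1, POM121B and USB1 overlapped a peak of DLD-1 alone, and the TCF15 peak overlapped no peak of either line.

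One host in most cases carried 1 dense peak. There were 836 such hosts, 78 with 2, 7 with 3 and 1 with 4. TUBGCP2 had 4 dense peaks with 22 sites, 1 in the 5'-UTR and 3 in CDS, at folds from 12.7 to 27.2. All 4 overlapped a peak of DLD-1, but only 1, in CDS, overlapped a peak of SW480. SLC7A5 and THBS1 had 3 each with 34 and 30 sites. KRT7, NCLN, FJX1, L1CAM and TBC1D9B also had 3 each, and FSCN1 and TOMM40, a pore protein of the outer mitochondrial membrane, had 2 each with 35 and 23 sites. The 3 peaks of KRT7 are not independent, since the shortest, of 144 bases, lies within the first block of the longest. The same holds in part for FJX1, and 108 of the 1017 dense peaks shared bases with another pooled peak on the same strand. In 229 of the 922 hosts a site-free peak stood beside the dense one.

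Hosts were nearly all protein-coding. The biotype was protein-coding for 974 dense peaks, antisense RNA for 15 and processed transcript for 11. In length bins holding both kinds (1002 dense and 7163 site-free peaks), 95.8% of dense and 97.4% of length-weighted site-free peaks had a protein-coding host, a difference of -1.64 points (-4.19 to 0.919). Dense peaks lay on the plus strand in 500 cases and on the minus strand in 517, and 90 of them (8.85%) overlapped a pooled peak on the opposite strand, against 6.17% of all pooled peaks. Whether the reads were counted by strand is not given in the sources used here, so such pairs of peaks cannot be told apart.

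Dense peaks were less often in the 3'-UTR and more often in CDS than site-free peaks of the same length. Of the dense peaks, 387 (38.1%, 35.1 to 41.1) lay in the 3'-UTR, 351 (34.5%, 31.7 to 37.5) in CDS, 260 in the class the list calls exon, 16 in the 5'-UTR, 3 at a stop codon and none of 4 peaks at a start codon. The list gives 1 position per peak, so a peak of several blocks may also cover other parts of its host. Of the exon class, 221 (85%) were on protein-coding hosts, where the list does not say which part of the transcript was meant. With lengths made equal, the 3'-UTR held 37.8% of dense and 59.4% of site-free peaks, and the difference was -21.6 points (-26.6 to -16.6). CDS held 34.6% and 23.7%, a difference of 10.9 points (6.13 to 15.6), and the exon class held 25.6% and 16.2%, a difference of 9.49 points (5.09 to 13.9). For the 5'-UTR the difference of 1.05 points (-1.25 to 3.35) was within counting error. Much of the shift was shared by peaks with fewer sites, here without correction for length. The 3'-UTR held 53.6% of peaks with 0 sites, 45.3% with 1, 40.2% with 4 and 39.6% with 5 or 6. CDS held 28.2%, 33.4%, 33.1% and 33.9% of them. At 10 sites or more the 3'-UTR held 36% and CDS 40%. Dense peaks were also more often made of several blocks (52.1% against 45.9%, a difference of 6.24 points, 1.09 to 11.4).

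**Figure D2:**
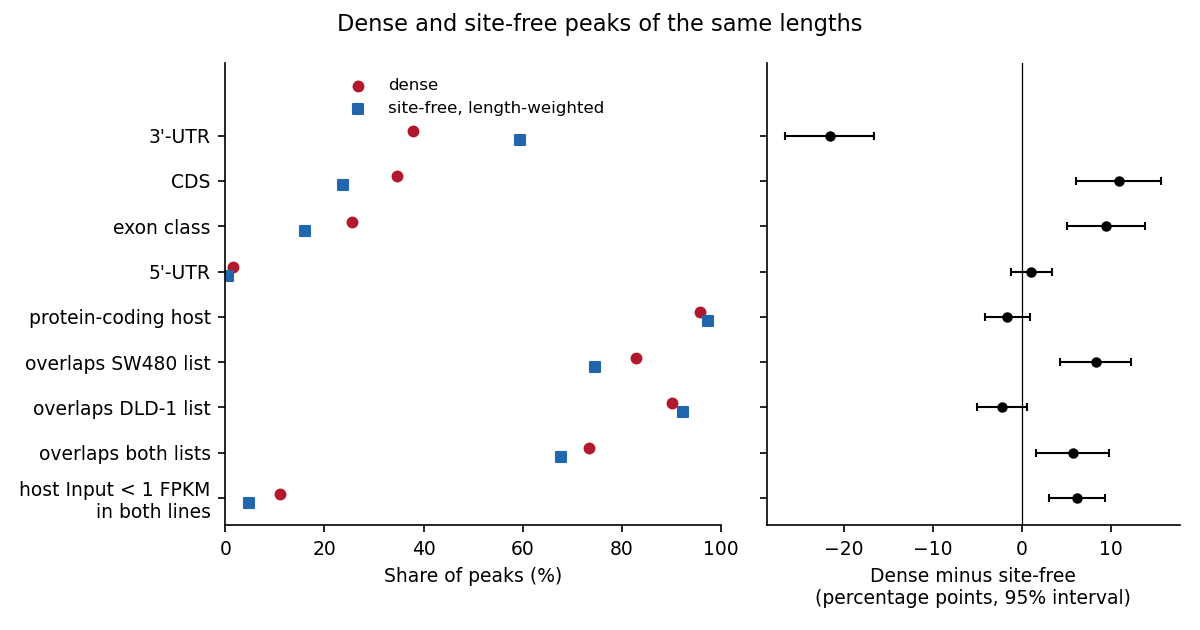
Left, share of peaks in percent for dense peaks (circles) and for site-free peaks weighted to the same length bins (squares). Right, the difference in percentage points with its 95% interval over peaks, which lies below 0 for the 3'-UTR (-21.6) and above 0 for CDS (10.9).

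Within the dense set, position went with density, length and fold. CDS peaks had a median of 1.43 sites per 100 bases, a length of 479 bases and a fold of 26.5, whereas 3'-UTR peaks had 1.11 sites per 100 bases, a length of 623 bases and a fold of 51.2. The 16 peaks of the 5'-UTR were short (median 328 bases) and packed (2.33 sites per 100 bases), with a median fold of 10.9. Along the peak the sites were spread almost evenly, with 34.4%, 34.4% and 31.2% of them in 3 equal parts of the spliced length from 5′ to 3′.

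Neighbouring sites in dense CDS peaks often kept the step of 3 bases. The distance between the first bases of neighbouring sites was a multiple of 3 for 1193 of 2101 gaps in CDS (56.8%, 54.7 to 58.9), for 722 of 1534 gaps in the exon class (47.1%, 44.6 to 49.6), for 45 of 91 gaps in the 5'-UTR (49.5%, 39.4 to 59.5) and for 863 of 2243 gaps in the 3'-UTR (38.5%, 36.5 to 40.5). The other remainders were even, with 453 and 455 gaps in CDS and 690 and 690 in the 3'-UTR. Sites are listed without overlap, so the shortest gap is 12 bases, and runs of Cs in steps of 3 give this gap by construction. It made up 10.9% of CDS gaps and 5.22% of 3'-UTR gaps. Without it the shares were 51.5% and 35.1%. Gaps were sorted by the position of the whole peak, not by that of each site. In peaks of 1 block, where no splice junction lies between sites, the shares were 57.9% and 34.6%. Peaks with 2 to 4 sites had 49.6% in CDS and 34.3% in the 3'-UTR.

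**Figure D3:**
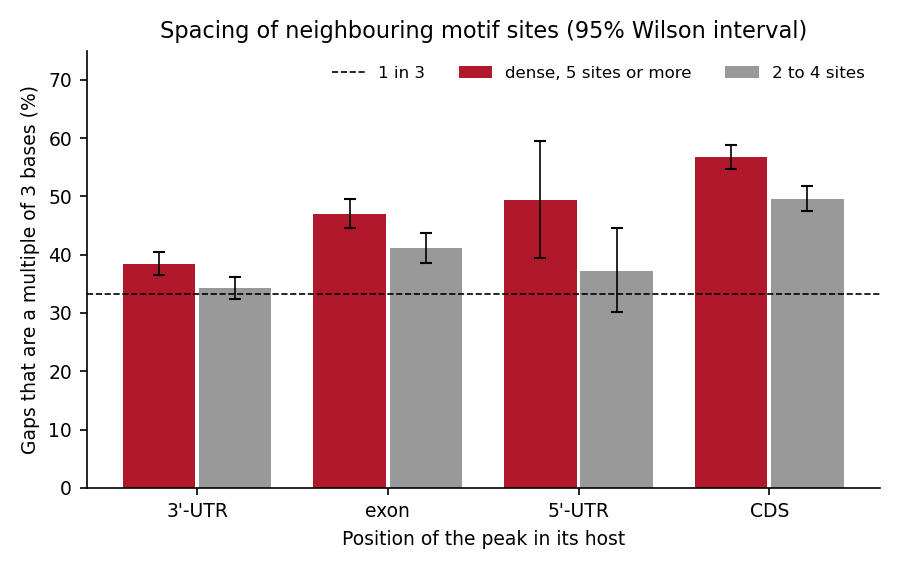
Share of gaps between neighbouring motif sites that are a multiple of 3 bases, in percent, by position of the peak, for dense peaks (red) and peaks with 2 to 4 sites (grey), with 95% Wilson intervals over gaps and a dashed line at 1 in 3. The dense CDS bar stands at 56.8% and the dense 3'-UTR bar at 38.5%.

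In single peaks the same register could run from end to end. All sites stood in 1 register in 42 of 351 dense CDS peaks (12%) and in 6 of 387 dense 3'-UTR peaks (1.55%). Besides JAG2, both later CDS peaks of THBS1, with 5 sites in 689 and in 1228 bases, were of this kind. The longest chain of abutting sites was 7 and lay in CDS. At least 2 sites abutted in 41.9% of dense CDS peaks and in 25.3% of dense 3'-UTR peaks. The position of the sites relative to the reading frame was not analysed here.

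Dense peaks were concentrated on a few gene-rich chromosomes. Chromosome 19 held 204 of them, which was 17.8% (15.7 to 20.1) of its 1147 pooled peaks, and it had 20.1% of dense but 3.22% of site-free peaks. With lengths made equal the difference for chromosome 19 was 18 points (14.6 to 21.4). Chromosomes 17 and 16 followed with 9.53% and 9.23% of their peaks dense, whereas 4 of 227 peaks on chromosome 13 and 1 of 179 on chromosome 18 were dense. Of the mitochondrial peaks, 3 of 12 were dense, on both ribosomal RNAs, MT-RNR1 and MT-RNR2, and on MT-ATP6.

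Taken over all lengths, the median fold of acRIP over Input did not set dense peaks apart once length was equal. The median fold was 36.9 (interquartile range 14.7 to 93.3) in dense peaks, 11.8 in all site-free peaks, and 35.3 (17.5 to 74.3) in site-free peaks weighted to the same lengths. On the log2 scale the difference of medians at equal length was 0.026. The sign changed with length, however. In each bin up to 400 bases the dense median was the lower one, for example 15.9 against 20.4 at 251 to 300 bases. Between 401 and 600 bases it was the higher one, for example 46.4 against 26 at 401 to 450 bases. At 601 to 700 bases it was the lower one (48.75 against 59.2), and in each longer bin holding both kinds the higher one. From 901 bases on, however, these bins held only 9, 6, 2 and 1 site-free peaks.

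**Figure D4:**
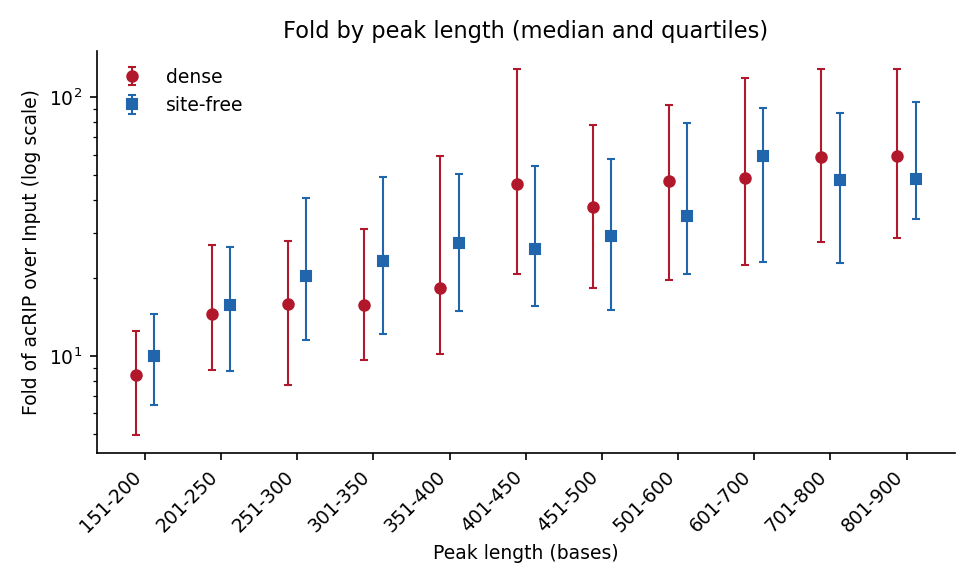
Median fold of acRIP over Input (log scale, vertical axis) with its quartiles by peak length in bases, for bins with at least 20 dense (circles) and 20 site-free peaks (squares). Fold rises with length in both, and the quartile ranges of both kinds overlap in every bin drawn.

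Most dense peaks were found again in the list of each line. A peak counted as present where it shared 1 base or more with a listed peak, strand included. Of the 1017, 846 (83.2%, 80.8 to 85.4) overlapped a peak of the SW480 list, against 52.9% of all pooled peaks. For DLD-1 it was 917 (90.2%, 88.2 to 91.8) against 73.7%, and for both lists 751 (73.8%, 71.1 to 76.5) against 32.1%. Only 5 overlapped neither, 95 overlapped the SW480 list alone and 166 the DLD-1 list alone. The lists come from the same acRIP libraries, so this is not an independent repeat.

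Much of this excess went with length. At equal length, 82.9% of dense and 74.6% of site-free peaks overlapped the SW480 list, a difference of 8.3 points (4.3 to 12.3), which grew to 21.1 points where at least 50% of each peak had to be shared. For the DLD-1 list the shares were 90% and 92.3%, a difference of -2.26 points (-5.1 to 0.58). For both lists the difference was 5.71 points (1.61 to 9.82), and with 1 peak per host it was 3.93 points (-0.612 to 8.47).

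**Figure D5:**
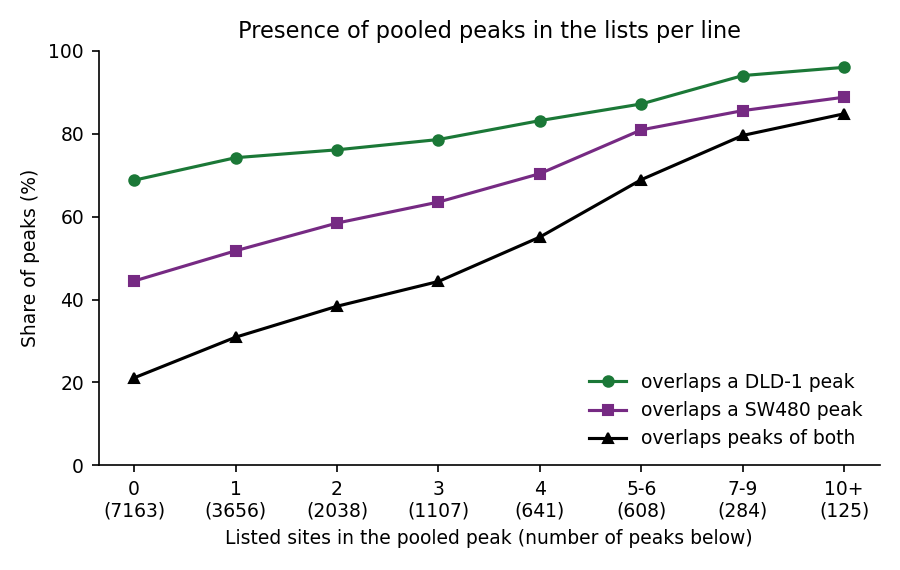
Share of pooled peaks, in percent, that overlap a peak of the DLD-1 list, the SW480 list or both, by number of listed sites, with the number of peaks under each class and without correction for length. Presence in both lists climbs from 21.1% at 0 sites to 84.8% at 10 sites or more.

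The peaks of the lines were shorter than the pooled ones and listed fewer of their sites. A site counted as listed only where the same position recurred in the list of the line. The 144-base KRT7 peak had 0 of 5 sites listed in SW480 and in DLD-1, although both lists held a peak there. Why sites were not listed was not tested. Where a dense peak was present in SW480, the peak there had a median of 391 bases against 568 for the pooled peak, listed 75.4% of its sites (4467 of 5924), and was itself dense in 530 of 846 cases. In DLD-1 it had a median of 479 against 567 bases, listed 86.2% of the sites (5522 of 6403) and was dense in 702 of 917 cases. SERINC2 kept 33 of its 35 sites in SW480 and 35 in DLD-1, and SLC7A5 kept all 18 in both. FSCN1 kept 10 of 23 in SW480 and 23 in DLD-1, and THBS1 kept 7 of 20 and 20. Counted anew in each list, 588 of 9536 SW480 peaks (6.17%) and 906 of 13964 DLD-1 peaks (6.49%) had at least 5 sites, close to the share in the pooled list.

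Keratins, the intermediate filament proteins of epithelia, were the gene list with the highest share of dense hosts. A dense peak was present on 7 of 13 keratin hosts (53.8%), against 11% of all hosts of pooled peaks, and the keratin peaks had a median length of 405 bases against 211 for all. They were KRT5, KRT7, KRT8, KRT10, KRT13, KRT16 and KRT17. KRT13 had the highest fold of the dense peaks, 14800 in the pooled list, 13100 in SW480 and 2950 in DLD-1, for 7 sites in a peak of 565 bases. KRT7 had 13 sites in a peak of 1140 bases at a fold of 1480. KRT8, the main keratin of simple epithelia, had a fold of 34.3 in SW480 and 42.8 in DLD-1 at Input FPKM of 761 and 345. The levels of KRT5 show the crossed labels, with an Input FPKM in the RIP table of 0.27 in SW480 and 114 in DLD-1 but a RIP FPKM of 93.4 and 0.816.

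The other lists were nearer to the background. Cytoskeletal linkers had 2 of 12 hosts, PLEC and FLNA. Solute carriers had 16 of 103 hosts (15.5%), among them SLC7A5, SLC25A10 with 14 sites, SLC25A11 with 12 and SLC44A2 with 9. At the low end were the EGF-repeat and large receptors with 0 of 10, the replication-dependent histones with 0 of 3 and the kinesins with 1 of 16, KIF18B with 5 sites. No mucin hosted a pooled peak. These counts are small and are given without a test.

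Of 14 genes that the study followed, 13 hosted a pooled peak and 1 of these a dense one (7.69%, against 11% of all hosts). POU2F1, the transcription factor OCT1, had 5 sites in 241 bases of exon (chr1:167415546-167415786) at a fold of 22.6, with a peak there in DLD-1 and none in SW480. KIF23, a kinesin of the central spindle, had 3 pooled peaks with 1, 0 and 1 sites, the highest fold being 112 in the 3'-UTR. NAT10 itself had 7 peaks with at most 2 sites each, BIRC5, the inhibitor of apoptosis survivin, reached 4 sites in a 3'-UTR peak of 1133 bases, and BCL2L1 had no pooled peak. In the densest peak of each, GSK3B had 4 sites, CCND1 and UBA1 had 3, NAP1L4 and HNRNPA2B1 had 2, CTNNB1 had 1, and HNRNPH3, MPP6 and MYC had 0.

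A number of dense peaks lay on genes with low or no Input values. The host had an Input FPKM below 1 in both lines for 111 dense peaks (10.9%) on 105 hosts, against 8.77% of all pooled peaks. For 59 dense peaks (5.8%) it was listed at 0 in both, against 4.01% of all pooled peaks. At equal length the share below 1 in both lines was 11% in dense and 4.77% in site-free peaks, a difference of 6.2 points (3.07 to 9.34). The fold had a median of 56.2 in these 111 peaks against 34.8 in the other dense peaks. A fold of at least 100 was reached by 38 of the 111, and by 128 of the 1370 such peaks among all pooled peaks. The upper quartile of the fold was 93.3 over all dense peaks. Part of this lay where annotated genes overlap. Of the 111 peaks, 60 shared bases on the same strand with a pooled peak of another host, as did 36 of the 59 whose host was listed at 0, among them ATP6V0C, ARL6IP4 and BCKDHA, genes in use in most cells. The overlapping host had an Input of at least 1 FPKM in a line for 21 of the 60 peaks and for 16 of the 36. Whether the RNA was missing from Input at these places was not tested. In the 51 of the 111 that shared no such bases the median fold was 139. Without peaks that share bases with one of another host, the difference at equal length was 3.04 points (0.19 to 5.9). A fold over so little Input rests on few Input reads, and how the authors treated an Input of 0 is not given in the sources used here.

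The hosts named next were picked after their values were seen. KLK5, a serine protease of the epidermis, MIR205HG, the host transcript of a microRNA of stratified epithelia, and the cancer-testis gene MAGEA4 were listed at 0 in both Inputs of both tables. KLK5 had 10 sites, with a fold of 626 in the SW480 list and 159 in the DLD-1 list. One of 2 dense MIR205HG peaks had folds of 1010 and 353. MAGEA4 had 109 and 1930. The RIP libraries held little of them as well, with 0.518 and 0.203 FPKM for KLK5, 0.0302 and 0 for MIR205HG and 0.019 and 0.0224 for MAGEA4. BASP1 (14 sites) and KRT17 (7 sites) were listed at 0 in both Inputs of the table deposited with the acRIP data. The fold of BASP1 was 21.9 in SW480 but 334 in DLD-1, and KRT17 had 249 and 21.2. KRT13 stood at 0.967 and 0.73 FPKM in these Inputs of SW480 and DLD-1. It stood higher in the Inputs of the RIP table, at 1.16 and 2.62 FPKM, and in the RIP libraries, at 3.44 and 3.87 FPKM. COL1A1, a collagen chain made by fibroblasts, had a dense peak with a fold of 61.4 in SW480 alone at 0.278 and 0.0471 FPKM. MAGEA3, MAGEA6 and MAGEA12 also had dense peaks, but these genes are so alike that reads may be shared between them. The dense peaks of KLK5, MIR205HG, MAGEA4, BASP1, KRT17, KRT13 and COL1A1 shared no base with a same-strand peak of another host. The source of this RNA in the acRIP libraries was not tested. Where both Inputs of the host reached 1 FPKM, the differences between dense and site-free peaks were close to those over all hosts, with -22.7 points for the 3'-UTR, 11.7 for CDS and 8.43 for presence in SW480.

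Binding by NAT10 was compared through the hosts. For the 769 hosts of dense peaks whose Input reached 1 FPKM in SW480 and in DLD-1, the median log2((RIP FPKM + 1) / (Input FPKM + 1)) was 0.0713 for the libraries labelled SW480 and -0.021 for those labelled DLD-1. The 3827 hosts of site-free peaks with no dense peak had 0.33 and 0.27, and all 12324 genes tested had 0.05 and -0.05. A ratio of at least 2 was reached by 122 dense hosts (15.9%) in SW480, against 15.6% of all genes and 19.5% of site-free hosts. In DLD-1 it was reached by 101 dense hosts (13.1%), against 15.1% of all genes and 20.7% of site-free hosts. The ratio was below 1 by a factor of 2 or more in 82 dense hosts (10.7%) in SW480. There it was so in 16% of all genes and 5.93% of site-free hosts. In DLD-1 it was so in 101 dense hosts (13.1%), against 19.2% of all genes and 7.03% of site-free hosts. With the Input of the other label the medians of dense hosts were -0.0305 and -0.0009, and those of site-free hosts 0.31 and 0.26. The median of dense hosts was below that of site-free hosts in each of these pairings. Their Input level was a little above that of site-free hosts, with a median of 8.8 against 7.06 FPKM in SW480 and 9.59 against 6.91 in DLD-1.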

How the data were processed

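RIP-seq, acRIP-seq and Input libraries of SW480 and DLD-1 were used, 1 per group as titled. Per the labels, reads were trimmed with cutadapt 2.5 and aligned with HISAT2 2.1.0, and human and mouse builds are named without a role. The peak caller is not given in the sources used here. The deposited peak lists (pooled and per line, GRCh38) hold a count of motif sites per peak, a p-value and log10 scores of p and FDR by the authors, and a fold ratio of acRIP over Input. FDR cells were spreadsheet errors in 640 pooled peaks and were read as below the threshold, their p-value being 0. The authors deposited FPKM for RIP and Input. A second deposited Input table was read as FPKM, its unit being unnamed. The ratio columns of RIP over Input, which are the authors' own comparisons, were not used.

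Peak starts were moved to count from 1. In minus-strand peaks of several blocks the listed site positions ran through the blocks in reverse (47.2% of 4575 sites fell in a block as listed), which was undone before spacing was measured (all 4575 then did). The number of sites is not affected. Dense and site-free shares were compared with site-free peaks weighted to the dense peaks' length bins (50 bases wide to 500, 100 to 1000, 250 to 2000), in bins holding both. Overlap was at least 1 base on the same strand, block by block. Intervals are binomial (Wilson for single shares) at 95%, and peaks of 1 host are not independent, so they are too narrow to that extent. RIP/Input used a pseudocount of 1, which understates changes of low genes. Procedures were tested on simulated data. Python 3.11.15, pandas 2.3.3, numpy 2.4.6 and scipy 1.17.1 were used.

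The peaks, gene lists and comparisons were chosen with earlier results of these data known. Named were the 10 peaks with the most sites, the 10 with the most sites per 100 bases, the 10 hosts with the most dense peaks, the 5 peaks in both lists whose lower fold was highest, 14 genes the study followed, and up to 4 members of the 3 highest and 3 lowest gene lists. Some of these are not reported here. The C share of peaks and the codon position of sites need a genome and were not analysed here. Spacing was measured in their place after the data were seen.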

Additional observations from a re-analysis of the deposited data

Results flagged for a closer look

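The same contrast pointed in opposite directions in the lines. The share of peaks present in the list of the line, dense minus site-free at equal length, was 8.3 points in SW480 and -2.26 points in DLD-1. The DLD-1 interval (-5.1 to 0.58) includes 0, and the difference between the lines was not tested. Whether the crossed labels of RIP and Input bear on the list of each line was not tested either. The DLD-1 list is the larger one, with 13964 peaks against 9536, and 92.3% of length-weighted site-free peaks were already in it.

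The median log2 RIP over Input of hosts of dense peaks was 0.0713 for the libraries labelled SW480 and -0.021 for those labelled DLD-1. The intervals of both medians over genes (-0.0188 to 0.149 and -0.0921 to 0.0453) include 0, and the difference was not tested. These libraries did not pair by label. With the Input of the other label both medians were below 0, at -0.0305 (RIP SW480) and -0.0009 (RIP DLD-1).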

How the results depend on the processing

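Of 100 values recomputed under another setting, 87 stayed within the interval (or, for counts, within 1.5 times) of the reported one, 13 moved out of it. No difference whose interval excludes 0 changed sign, whereas 2 values near 0 did. The number of dense peaks was 1658 at 4 sites and 621 at 6 sites. Sites per 100 bases were 1.17 when only p-values below the median were kept and 1.18 with 1 peak per host. Presence in SW480, dense minus site-free, was 21.1 points at an overlap of 50% of each peak and 12.6 points with per-line p-values under the median, and presence in both lists was 16.2 points at 50%. The RIP median of dense hosts labelled SW480 was -0.0305 over the Input of the other label, and the log2 fold difference was -0.10 on hosts with Input of at least 1 FPKM in both lines, a setting chosen after seeing the data. In other settings chosen after seeing the data, the share of low-Input hosts differed by 3.04 points without peaks sharing bases with one of another host, and the 3'-UTR difference was -27.6 points in peaks of at most 600 bases, where the intervals of the DLD-1 difference, -3.33 points (-6.36 to -0.312), and of the 5'-UTR difference, 1.58 points (0.191 to 2.97), no longer included 0. Multiples of 3 fell to 51.5% of CDS gaps and 35.1% of 3'-UTR gaps without gaps of 12 bases, which removes multiples of 3 by construction, and were 34.6% of 3'-UTR gaps in peaks of 1 block. For the other moves the cause was not tested. No paired analysis was possible because each group has 1 library and the labels carry no replicate numbers. The C share of peaks and the codon position could not be given a value. With 1 library per group the spread between cultures is unknown, and the depth of the acRIP libraries is too.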

Other observations

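The remaining gene lists lay around the 11% of all hosts that had a dense peak. Cytosolic ribosomal proteins had 7 of 72 hosts (9.72%), among them RPS2 with 7 sites, RPLP1 with 6 and RPLP0 with 5. Such genes have many processed pseudogenes, and 1 of these, RPS2P46, was itself listed with 9 sites. Zinc finger genes had 12 of 135 (8.89%), led by ZNF205 with 12 sites and ZNF467 with 11, both in CDS. Splicing factors of the SRSF, HNRNP and SRRM families had 3 of 35 hosts, HNRNPAB, HNRNPA0 and SRSF2, and over all their peaks 0.213 sites per 100 bases, against 0.465 over all pooled peaks, although their peaks were longer (median 300.5 against 211 bases). Laminins and integrins had 2 of 15 (LAMA5 and ITGB4), chromatin co-regulators 2 of 17 (CHD3 and SRCAP), SOX, FOX and KLF factors 3 of 25 (SOX15, FOXD1 and FOXM1), collagens 1 of 11 (COL1A1) and HOX genes 1 of 9 (HOXA4).

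MT2A, a metallothionein that binds zinc and copper, had 13 sites in an exon peak of 945 bases, with a fold of 5480 in SW480 and 706 in DLD-1 at Input FPKM of 7.2 and 21.8. All 13 sites were listed in both lines. FGFBP1, a carrier of fibroblast growth factors, had 5 sites in 1211 bases and folds of 1620 and 920, with Input FPKM of 8.42 in SW480 and 0.408 in DLD-1.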
